A study of Homo sapiens with 6 samples.

Results

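CLC, EPX, HDC, IL1RL1 and GATA2 are genes of the eosinophil, basophil and mast cell lineages, taken here as 5 of the 14884 genes that a row of the deposited array table names. They were selected on their log2 difference between the study's groups, so their own values are given as a description with no test. The cells were THP-1, a human line established from an acute monocytic leukaemia and labelled by the submitters as an acute myeloid leukaemia line. One group, RKIP shRNA, carried a vector expressing a short hairpin RNA against RKIP; the other, control, carried the same vector (psi-LVRU6GP) empty, so its cells expressed no hairpin. Both groups were selected and kept in 1.5 µg/mL puromycin, and each had 3 arrays, called biological replicates by the submitters. The labels do not tell separate transductions from repeat cultures of 1 transduced population, so every p-value reflects only how far these arrays spread, which may be technical. RKIP, the Raf kinase inhibitor protein encoded by PEBP1, restrains signalling from RAF to ERK, and the study asked which genes change when it is depleted.

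Eosinophils, basophils and mast cells arise from myeloid progenitors that depend on GATA factors, and they are known for granules loaded with cationic proteins, proteases or histamine. Interleukin 33, released from damaged tissue, activates these cells through the receptor ST2.

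Taken over its 53617 rows, each array had a median from 4.06 to 4.10 (log2), and the median of the whole table was 4.08. A gene below that median is called dim here, because background compresses its changes. The number of arrays limits the precision of each value. The hairpin's target, PEBP1, had a log2 mean of 9.68 ± 0.14 in control arrays and of 8.22 ± 0.04 in RKIP shRNA arrays (SD, n = 3 each). It fell by 1.46 (log2; SE 0.09; adjusted p = 0.000228 by limma). An exact two-sided permutation test over 20 assignments gave p = 0.1, the smallest possible with 3 arrays against 3. Over all named genes, 10.0% were called higher and 10.2% lower in RKIP shRNA cells (limma, Benjamini-Hochberg adjusted p under 0.05). On simulated arrays the same fit called 24 of 63 genes, or 38.1%, that had a true change of 0.5 (log2). Only 63, 57 and 80 genes were changed there, by 0.5, 1 and 2, against 3010 called in these data. The Benjamini-Hochberg cut-off was thus stricter in the simulation, and 38.1% is not an estimate for these arrays. A gene that did not pass is still not shown to be unchanged. The counts of genes called higher and lower fell whichever array was left out. With all 6 arrays 1495 genes were called higher, and without 1 array 963 to 1212 were. The lowest counts came without RKIP shRNA replicate 1 (963), control replicate 2 (969) and control replicate 3 (983). Genes called lower went from 1515 to between 1018 and 1270.

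CLC encodes the Charcot-Leyden crystal protein, also named galectin-10, which fills the cytoplasm of eosinophils and basophils and crystallises where eosinophils break up. Its log2 values were 6.15, 6.10 and 6.10 in control replicates 1, 2 and 3, and 11.59, 11.42 and 11.63 in RKIP shRNA replicates 1, 2 and 3. All RKIP shRNA arrays lay above all control arrays, with a gap of 5.27 between the nearest pair and a range of 0.06 and 0.20 within the groups. The means were 6.12 ± 0.03 and 11.55 ± 0.11 (SD, n = 3 each), a log2 difference of 5.43. Taking each RKIP shRNA array against each control array, the ratio lay between 38.6-fold and 46.2-fold. Its control mean was already 2.03 above the array medians, so CLC was not dim in the empty-vector cells. The RKIP shRNA mean was 7.47 above them.

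The CLC promoter is shown because CLC had the largest difference of any named gene and GATA2, a factor that binds GATA words, is in the same gene set. The 250 bases before the RefSeq start lie at chr19:39738030-39738279 (GRCh38.p14, minus strand) and are printed 5′ to 3′ with GATA words in capitals. The words searched, on both strands, were AGATAA and its variants with T as the first letter, G as the last letter, or both.
CLC upstream: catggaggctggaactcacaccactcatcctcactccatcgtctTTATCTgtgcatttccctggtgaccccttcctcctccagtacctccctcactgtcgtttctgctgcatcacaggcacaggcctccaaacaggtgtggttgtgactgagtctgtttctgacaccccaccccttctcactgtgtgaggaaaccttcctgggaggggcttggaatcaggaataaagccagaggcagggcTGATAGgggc
There were 2 matches. The one nearer the start ended 5 bases before it and lay on the gene's own strand, and the other began 206 bases before it on the opposite strand. A GATA word was present in 22.3% of 35116 RefSeq promoters of the same length, and 2 or more in 4.96%. The PU.1 word GAGGAA was found 2 times. At least 1 was present in 23.6% of promoters, and the share with 2 or more was not counted. The C/EBP word TTGCNNAA was not found, against a presence in 9.05%. None of these matches overlapped another. A match describes the letters and not binding, which was not measured.

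EPX encodes eosinophil peroxidase, the haem enzyme of the specific granule that oxidises bromide and thiocyanate. Its log2 values were 5.38, 5.36 and 5.14 in the 3 control arrays and 10.12, 10.31 and 10.28 in the 3 RKIP shRNA arrays. The groups stood 4.73 apart at their nearest arrays, while control replicate 3 was the lowest array and the ranges within groups were 0.24 and 0.19. The means were 5.30 ± 0.13 and 10.23 ± 0.10 (SD, n = 3 each), a log2 difference of 4.94, and single pairs of arrays ran from 26.6-fold to 35.9-fold. The control mean was 1.21 and the RKIP shRNA mean 6.16 above the array medians.

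CLC and EPX stood apart from the other named genes. They ranked 1 and 2 of 14884 by the size of the rise, and the third named gene, CXCL8, had a log2 difference of 3.05. Every pair of arrays gave a larger difference for CLC than any pair did for EPX, the lowest for CLC being 5.27 and the highest for EPX 5.16.

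**Figure D1:**
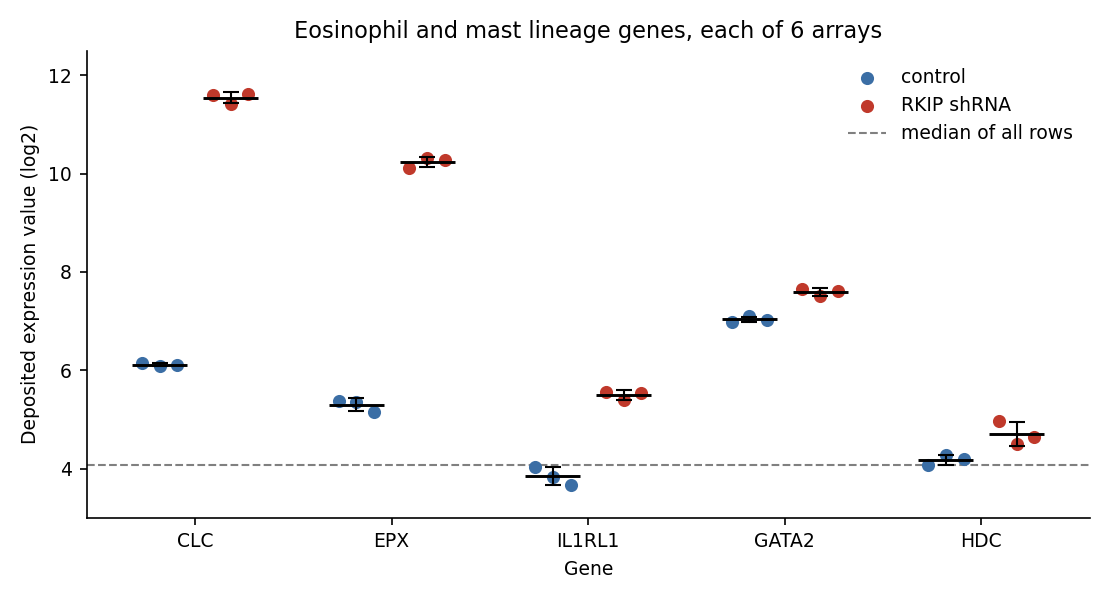
Deposited log2 values (vertical axis) of CLC, EPX, IL1RL1, GATA2 and HDC (horizontal axis) in each array, blue for the 3 control and red for the 3 RKIP shRNA arrays, with black bars for the mean and SD and a dashed line at 4.08, the median of all rows. The groups did not overlap for any of the 5 genes, CLC and EPX were furthest apart, IL1RL1 was below the line only in control arrays, and the control values of HDC lay close to it.

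IL1RL1 encodes ST2, the receptor chain for interleukin 33 on mast cells, basophils and eosinophils. Its log2 values were 4.03, 3.84 and 3.67 in control arrays and 5.56, 5.39 and 5.54 in RKIP shRNA arrays. It was below the array median in 3 of 3 control arrays and above it in 3 of 3 RKIP shRNA arrays, a pattern shared by 35 named genes or 0.235%. The means were 3.84 ± 0.18 and 5.50 ± 0.09 (SD, n = 3 each), with a log2 difference of 1.65, a gap of 1.36 between the nearest arrays and pairwise ratios from 2.57-fold to 3.72-fold. Since the control values were dim, the ratio may understate the difference. IL1RL1 ranked 15 among named genes by the size of the rise.

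RefSeq lists 2 starts for IL1RL1, a distal and a proximal one, and the gene is known to be transcribed from both. The sequences before them are shown because they differ in GATA words while the array gives 1 value for the gene. They lie at chr2:102311313-102311562 and chr2:102337007-102337256 (GRCh38.p14, plus strand), again with GATA words in capitals.
IL1RL1 distal upstream: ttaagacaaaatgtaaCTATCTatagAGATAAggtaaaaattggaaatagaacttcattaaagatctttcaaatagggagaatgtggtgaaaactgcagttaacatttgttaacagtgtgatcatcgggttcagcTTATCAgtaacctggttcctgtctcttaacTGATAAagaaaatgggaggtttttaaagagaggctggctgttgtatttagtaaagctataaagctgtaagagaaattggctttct
IL1RL1 proximal upstream: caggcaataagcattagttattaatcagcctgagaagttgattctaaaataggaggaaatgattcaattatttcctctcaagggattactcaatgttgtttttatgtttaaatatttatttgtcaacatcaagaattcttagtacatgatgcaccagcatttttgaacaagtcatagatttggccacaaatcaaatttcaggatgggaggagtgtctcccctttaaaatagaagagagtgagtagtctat
The distal sequence held 4 GATA words and 0 PU.1 words, and the proximal one 0 GATA words and 2 PU.1 words. At least 4 GATA words were present in 0.174% of the 35116 promoters, but the distal sequence is also poor in G and C, at 33.6% against a median of 58% over all promoters. Among the 6 starts of the 4 genes that matched the RefSeq table (CLC, HDC, GATA2 and IL1RL1), those of HDC and GATA2 held no GATA word: HDC had 1 start with 1 PU.1 word, and GATA2 had 2 starts, of which 1 held a PU.1 word. The C/EBP word was in none of the 6.

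HDC encodes histidine decarboxylase, the enzyme that makes histamine and thereby a defining product of mast cells and basophils. Its log2 values were 4.08, 4.27 and 4.19 in control arrays and 4.97, 4.50 and 4.64 in RKIP shRNA arrays. The RKIP shRNA arrays were all higher, but only by 0.23 at the nearest pair, against a range of 0.46 among themselves, with RKIP shRNA replicate 1 above the other two. The means were 4.18 ± 0.10 and 4.71 ± 0.24 (SD, n = 3 each), a log2 difference of 0.52. The control mean was 0.10 and the RKIP shRNA mean 0.63 above the array medians, so HDC remained close to the middle of all rows in both groups. HDC had the widest spread of the 5 genes, a pooled SD of 0.18 where the median named gene had 0.12.

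GATA2 encodes a zinc finger transcription factor of haematopoietic progenitors that is kept on in mast cells and basophils. Its log2 values were 6.99, 7.10 and 7.03 in control arrays and 7.66, 7.51 and 7.61 in RKIP shRNA arrays. The groups were separate, with a gap of 0.42 and ranges of 0.11 and 0.15 within them. The means were 7.04 ± 0.06 and 7.60 ± 0.08 (SD, n = 3 each), a log2 difference of 0.56 and a pooled SD of 0.07, the narrowest of the 5. GATA2 was not dim in either group, at 2.96 and 3.52 above the array medians.

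The 5 genes thus shared a direction, which their choice fixed, and not a size. Every pairwise difference for EPX exceeded every one for IL1RL1, and every one for IL1RL1 exceeded every one for GATA2. GATA2 and HDC overlapped: their differences of 0.56 and 0.52 came from pairs of arrays between 0.42 and 0.68 and between 0.23 and 0.89. Ranked by rise, GATA2 and HDC stood at 414 and 510 of the named genes. The groups did not overlap, with RKIP shRNA higher, for 5 of the 5 genes and for 19.8% of all named genes. CLC, EPX and IL1RL1 differed by at least 2-fold, as did 0.417% of named genes in that direction. In bulk RNA, fewer cells with a transcript and less of it per cell cannot be told apart, so a difference may lie in some cells or in all.

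**Figure D2:**
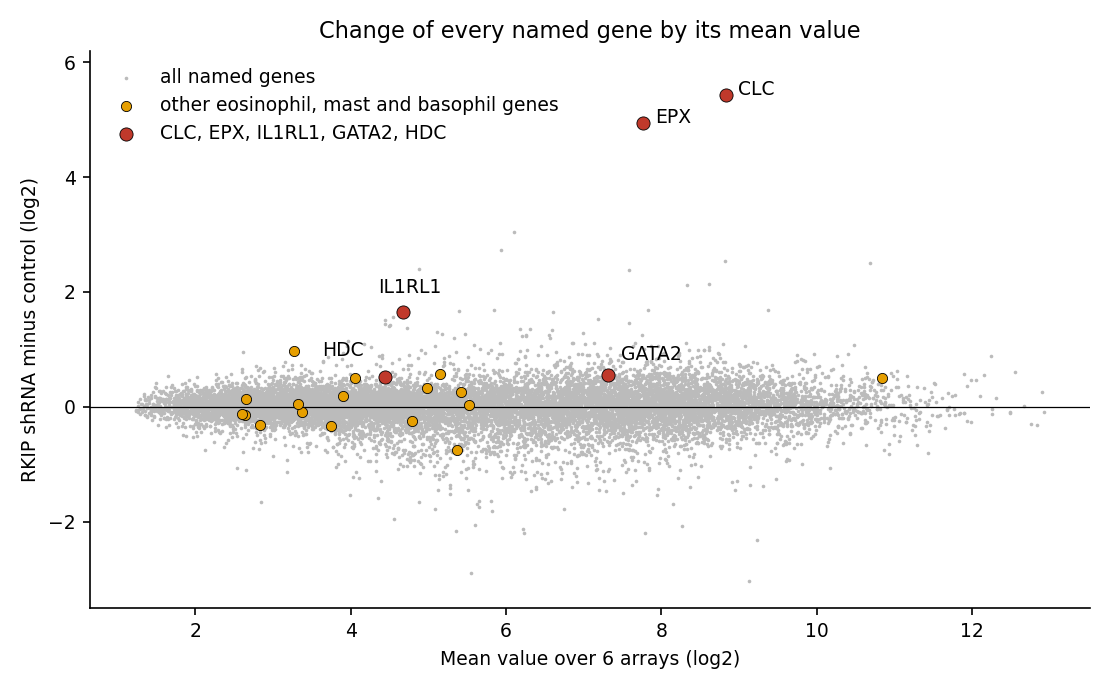
Log2 difference between RKIP shRNA and control (vertical axis) against the mean value over the 6 arrays (horizontal axis, log2) for the 14884 named genes, with the 5 genes in red and the other measured eosinophil, mast cell and basophil genes in orange. CLC at 5.43 and EPX at 4.94 lie apart from all other points, IL1RL1 lies near the upper edge, and GATA2, HDC and most orange points lie within the grey band.

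The other measured eosinophil genes had log2 changes from -0.13 to 0.96. Of 16 genes listed for eosinophils, 5 besides CLC and EPX had a named row. Their median log2 change was 0.03, beside 0.02 over all genes. Of these 5, 1 rose, 0 fell and 4 did not pass by limma, where 10.0% of all genes rose and 10.2% fell. At an unadjusted p under 0.05, 1 was higher and 0 lower, beside 4806 of all 14884 genes in either direction. The 1 was HRH4, the histamine H4 receptor, which went from 2.79 ± 0.24 to 3.76 ± 0.11, a log2 change of 0.96 (SE 0.13, limma adjusted p = 0.00301); it was dim in both groups. PRG3, a homologue of the granule major basic protein, had a log2 change of 0.04 (3.30 against 3.35), the eosinophil lectin gene SIGLEC8 one of -0.13, the lipoxygenase gene ALOX15 -0.09 and PTGDR2, the prostaglandin D2 receptor, 0.03. PRG3, SIGLEC8 and ALOX15 were dim in both groups. The remaining 9 listed genes, among them PRG2, RNASE2, RNASE3, IL5RA and CCR3, were not analysed here because no row carried their names, so the median describes the 5 measured genes and not the list. Whether rows without a gene name read any of them was not tested.

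Of 22 genes listed for mast cells and basophils, 12 besides HDC and IL1RL1 had a named row. The remaining 8, among them MS4A2, FCER1A, FCER1G and CMA1, were not analysed here because no row carried their names. Of the 12 measured, 2 rose, 1 fell and 9 did not pass, beside 10.0% higher and 10.2% lower over all genes. Counts this small are not read as a shift of the list. The median log2 change of the 12 was 0.16, beside 0.02 over all genes. CTSG, the granule protease cathepsin G that monocytic and neutrophil precursors also make, rose by 0.51 (SE 0.08, limma adjusted p = 0.00495) from a bright control mean of 10.58. TPSB2, a beta tryptase of mast cell granules, rose by 0.56 (SE 0.13, adjusted p = 0.0241), but lost its call without control replicate 1 (adjusted p = 0.0638) and without RKIP shRNA replicate 2 (0.0687) or 3 (0.0756). TPSB2 and TPSAB1 are near copies of one another, so their signals may be shared. TPSAB1 was dim in both groups, at 3.91 and 3.58. It had a log2 change of -0.33 and passed only without RKIP shRNA replicate 1 (limma adjusted p = 0.0369). The tryptase genes TPSG1 and TPSD1 had changes of 0.33 and -0.25 and did not pass. SIGLEC6, a lectin receptor of mast cells, fell by 0.74 (SE 0.15, adjusted p = 0.0126). HPGDS, the haematopoietic prostaglandin D synthase, had a log2 change of 0.50 that did not pass (adjusted p = 0.0606), but did without control replicate 1 (0.00838) and with a trended and robust prior (0.0373). KIT, the receptor for stem cell factor that mast cells need, was dim in both groups with a change of -0.32, and CPA3, the mast cell carboxypeptidase, was dim in both with -0.15.

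The list of lineage factors covered blood lineages broadly and not only those of eosinophils, basophils and mast cells. Of 18 measured besides GATA2, 3 rose, 1 fell and 14 did not pass, beside 10.0% higher and 10.2% lower over all genes. These counts too are not read as a result about the list. SPI1, which encodes PU.1, rose by 0.49 (SE 0.08, limma adjusted p = 0.00527) and LMO2, a bridging partner of GATA factors, by 0.48 (SE 0.08, adjusted p = 0.00573). IKZF1, which encodes Ikaros, rose by 0.34 (adjusted p = 0.0123), and FLI1, an ETS factor, fell by 0.46 (adjusted p = 0.00386). GATA1, a factor needed for eosinophil development, was at 5.52 ± 0.08 and 5.75 ± 0.14, a log2 change of 0.23 that did not pass (adjusted p = 0.128). MITF, needed by mast cells, was dim in both groups with a change of 0.15, and TAL1, a partner of GATA factors, was dim with -0.01. The repressor genes GFI1 and GFI1B had log2 changes of 0.09 and -0.01. The C/EBP genes of the list were not analysed here, as no row carried their names.

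**Figure D3:**
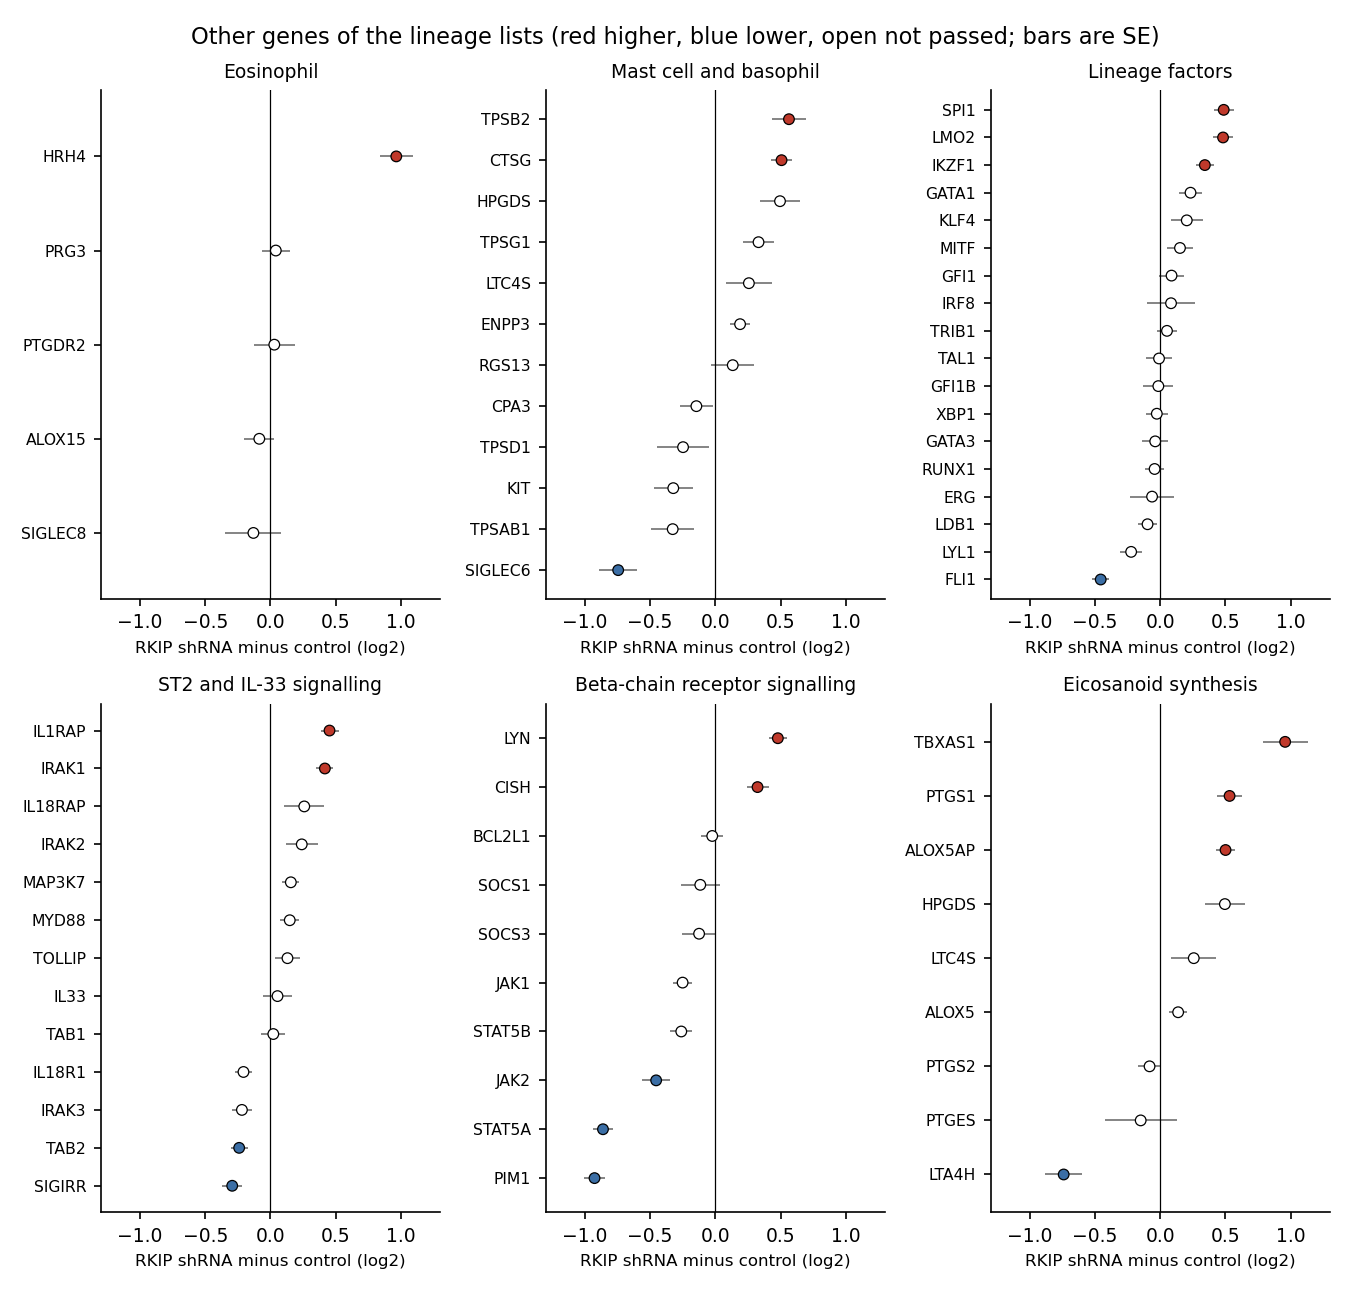
Log2 change in RKIP shRNA against control (horizontal axis) of each measured gene in 6 lists, the 5 described genes left out, with bars for the SE from limma. Red points rose, blue points fell and open points did not pass at an adjusted p under 0.05; none reaches a log2 change of 1, and HRH4 at 0.96 and PIM1 at -0.93 are among the furthest from 0.

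Of 13 measured genes of ST2 and interleukin 33 signalling besides IL1RL1, 2 rose, 2 fell and 9 did not pass, where 10.0% of all genes were higher and 10.2% lower; the list's median log2 change was 0.13. IL1RAP, the accessory chain with which ST2 pairs, averaged 5.63 ± 0.07 in control arrays against 6.08 ± 0.04 in RKIP shRNA arrays and rose by 0.45 (SE 0.07, limma adjusted p = 0.00477), and the kinase gene IRAK1 rose by 0.42 (adjusted p = 0.00549). SIGIRR, an inhibitory receptor of this family, fell by 0.29 and the adaptor gene TAB2 by 0.24. These last calls were lost in each of the 6 fits that left out 1 array, with adjusted p-values from 0.0518 to 0.113 for SIGIRR and from 0.0538 to 0.11 for TAB2. The ligand gene IL33 was dim in both groups, at 2.12 and 2.17, and did not pass. MYD88, the adaptor that ST2 recruits, had a change of 0.15 and did not pass.

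Around HDC, the histamine H4 receptor gene HRH4 rose, as given with the eosinophil genes, the list in which it was placed. The histamine list covered other receptors and enzymes of histamine breakdown. Of its 7 genes measured besides HDC, 0 rose and 0 fell by limma, where 10.0% of all genes were higher and 10.2% lower. Its median log2 change was 0.22. At an unadjusted p under 0.05, 2 were higher and 0 lower, beside 4806 of all 14884 genes in either direction. The 2 were the H2 receptor gene HRH2 at 0.30 and the amine oxidase gene MAOA at 0.29. HRH2 passed by limma when dim genes were left out of the fit (adjusted p = 0.0493). HNMT, which inactivates histamine by methylation, was dim in both groups with a change of 0.02.

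Eosinophil and basophil precursors respond to interleukins 3 and 5 and GM-CSF through a common beta chain that signals by JAK2 and STAT5. The receptor chain genes of the list, IL5RA, CSF2RA, CSF2RB and IL3RA, were not analysed here because no row carried their names. Of 10 measured genes of this path, 2 rose, 3 fell and 5 did not pass, with a median log2 change of -0.19. Over all genes the shares were 10.0% higher and 10.2% lower. STAT5A went from 8.52 ± 0.08 to 7.66 ± 0.07 and fell by 0.86 (SE 0.08, limma adjusted p = 0.000704), and the kinase gene PIM1, a known STAT5 target, fell by 0.93 (SE 0.08, adjusted p = 0.00072). JAK2 fell by 0.45 (adjusted p = 0.0233), but did not pass without control replicate 1 (0.0758) or 2 (0.0796), or without RKIP shRNA replicate 1 (0.0617). LYN, a SRC family kinase of these receptors, rose by 0.48 (adjusted p = 0.00365). CISH, another known STAT5 target, rose by 0.32 (adjusted p = 0.0361) but did not pass without control replicate 2 (0.115) or 3 (0.1), or without RKIP shRNA replicate 1 (0.115) or 3 (0.0841).

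The other peroxidases had log2 changes of 0.03 to 0.26. Of 9 measured genes of haem peroxidases and haem synthesis besides EPX, 1 rose, 1 fell and 7 did not pass, with 10.0% of all genes higher and 10.2% lower. MPO, the myeloperoxidase of azurophil granules, was bright in both groups at 12.76 ± 0.05 and 13.03 ± 0.07 and rose by 0.26 (limma adjusted p = 0.0407); this call was lost in each of 6 fits without 1 array, with adjusted p-values from 0.066 to 0.115. LPO, the peroxidase of secretions, had a log2 change of 0.10 and PXDN one of 0.03, and both were close to or below the median of all rows. PPOX, an enzyme late in haem synthesis, fell by 0.47 (adjusted p = 0.0155), but did not pass without control replicate 1 (0.0561) or 2 (0.0542), or without RKIP shRNA replicate 1 (0.0562). The galectin list held no measured gene besides CLC, so the other galectins were not analysed here.

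Genes for lipid mediators of mast cells and eosinophils included 3 that rose and 1 that fell of 9 measured, beside 10.0% and 10.2% of all genes, with a median log2 change of 0.26. TBXAS1, the thromboxane synthase, rose by 0.96 (SE 0.17, limma adjusted p = 0.00882). PTGS1, the constitutive cyclooxygenase, rose by 0.53 (adjusted p = 0.0086) and ALOX5AP, the protein that presents arachidonate to 5-lipoxygenase, by 0.50 (adjusted p = 0.00389). LTA4H, which makes leukotriene B4, fell by 0.74 (adjusted p = 0.0123). Of 7 measured genes of type 2 cytokines and eosinophil attractants, 1 rose and 0 fell by limma, where 10.0% of all genes rose and 10.2% fell. At an unadjusted p under 0.05, 2 were higher and 0 lower, beside 4806 of all 14884 genes in either direction. The 1 that rose was CCL5, by 0.64 (SE 0.07, limma adjusted p = 0.00155). The other 6 were dim in both groups; IL13 among them passed only without control replicate 2 (adjusted p = 0.0433).

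Markers of other blood cells are given beside these genes, with 10.0% of all genes higher and 10.2% lower for each count. Of 12 measured neutrophil genes, 3 rose, 1 fell and 8 did not pass. The list's mean level was 4.49 to 4.62 in control and 4.93 to 5.00 in RKIP shRNA arrays. Its median log2 change was only 0.10, beside 0.02 over all genes. PRTN3 rose by 2.51 and BPI, a granule protein, by 1.41 (SE 0.18, limma adjusted p = 0.00236); AZU1 rose by 0.60 and the receptor gene CSF3R fell by 0.49. The call of AZU1 held without control replicate 1 but in none of the other 5 fits that left out 1 array, where the adjusted p lay between 0.0613 and 0.101. CSF3R did not pass without control replicate 1 (0.0668) or 2 (0.071), or without RKIP shRNA replicate 1 (0.0535). The neutrophil genes LTF, MMP8 and CEACAM8 were dim in both groups, with changes of 0.05, 0.02 and 0.06. Of 11 measured monocyte genes, 2 rose (LYZ by 2.55 and CD68 by 0.37), CD4 fell by 0.35 and 8 did not pass, beside the same shares of all genes. A second, dimmer LYZ row had a log2 change of 3.43 (4.13 in control, 7.56 in RKIP shRNA arrays). The monocyte list's mean level was 4.49 to 4.52 in control and 4.76 to 4.88 in RKIP shRNA arrays. Its median log2 change was 0.02, the same as over all genes. CD4 did not pass without control replicate 2 (0.0543) or 3 (0.0511), or without RKIP shRNA replicate 1 (0.0588); CSF1R and S100A8 passed only without RKIP shRNA replicate 2 (0.0389 and 0.0465). CD14, a defining monocyte marker, was dim in both groups at 2.77 and 2.71.

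None of 4 erythroid and 5 megakaryocyte genes passed by limma, where 10.0% of all genes were higher and 10.2% lower. At an unadjusted p under 0.05 there were 0, beside 4806 of all 14884 genes. The largest changes were 0.24 for KLF1 and 0.13 for PPBP. Mean levels were 4.71 to 4.78 against 4.77 to 4.94 for the erythroid list and 4.02 to 4.11 against 4.05 to 4.20 for the megakaryocyte list, control first. Of 5 lymphocyte genes, 2 rose and 0 fell, where 10.0% of all genes rose: NKG7, a granule membrane protein gene, by 0.93 (SE 0.08, adjusted p = 0.000579), and CD5 by 0.39 (adjusted p = 0.0486), a call that held without control replicate 3 but in no other fit that left out 1 array, where the adjusted p lay between 0.101 and 0.138. That list's mean level was 4.87 to 5.02 in control and 5.18 to 5.28 in RKIP shRNA arrays, with a median log2 change of 0.17. The part of any other cell type in the values of CLC, EPX, IL1RL1, GATA2 and HDC was not tested.

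Genes with the most similar profiles were found by the root-mean-square distance between values over the 6 arrays, each gene centred on its own mean and set against the other 14883 genes. CLC and EPX were each other's nearest named gene, at a distance of 0.28, and no further named gene came within 0.5 of either. Rows without a gene name were not searched. One of them, row 16738465, had a log2 difference between the groups of 5.46, beside 5.43 for CLC. Next to both were the chemokine gene CXCL8 (1.21 from CLC, 0.99 from EPX) and the myeloid nuclear antigen gene MNDA (1.36 and 1.11). IL1RL1 was nearest to SNAR-B1, a small non-coding RNA gene with near-identical copies, and the metallothionein gene MT1X, at 0.14 each, and to LST1, a leukocyte transcript, at 0.15. GATA2 had GPAT3, COTL1 and EMP3 within 0.03, but 397 genes lay within 0.1 of it. HDC had CNGA2, SNAR-I and LINC00685 at 0.07 each, with 20 genes within 0.1. With 2 groups of 3 arrays, this likeness mostly measures an equal difference between the groups.

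**Figure D4:**
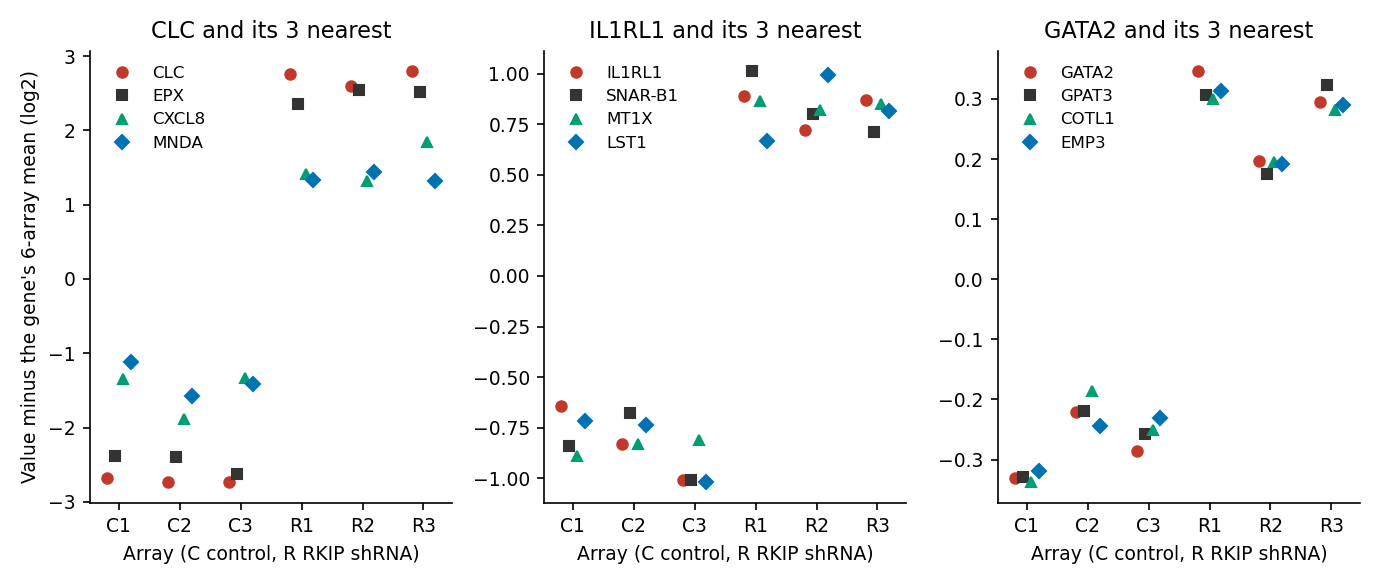
Value of each gene minus its own mean over the 6 arrays (vertical axis, log2; the scale differs between panels) in control replicates C1 to C3 and RKIP shRNA replicates R1 to R3, for CLC, IL1RL1 and GATA2 with the 3 genes nearest to each. EPX follows CLC at a distance of 0.28 while CXCL8 and MNDA lie nearer 0, and the 3 genes beside GATA2 follow it within 0.03.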

How the data were processed

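THP-1 total RNA (250 ng an array, per the labels) was hybridised to Affymetrix Human Gene 2.0 ST arrays. The deposited values are on a log2 scale, read from their range of 0.72 to 14.0; how the authors corrected background, summarised and normalised them, and their build, is not given in the sources used here. Rows were named through the array annotation of the series: 16098 rows had 1 symbol, 0 had several and 37519 none here. The brightest probe of each of 14884 genes was kept; each of the 5 genes had 1 probe.

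RKIP shRNA was compared with control over all named genes with limma 3.58.1 (lmFit, eBayes; R 4.3.3), at a Benjamini-Hochberg adjusted p under 0.05. All arrays entered and none was imputed. The members and the 15 gene lists, 210 genes of which 130 were measured, were chosen with earlier results of these data known. In each list, called genes with the smallest p (up to 4) are named, or the 2 with the largest change; PRG3, SIGLEC8, ALOX15, PTGDR2, TPSAB1, TPSG1, TPSD1, HPGDS, KIT, CPA3, GATA1, MITF, TAL1, GFI1, GFI1B, IL33, MYD88, HNMT, CISH, LPO, PXDN, IL13, LTF, MMP8, CEACAM8, CD14, CSF1R and S100A8 were added after their values were seen. The fit was tested on simulated arrays. Promoters are RefSeq sequences of GRCh38.p14. Same-numbered arrays did not deviate together (correlations from -0.016 to 0.019), so the numbers were not taken as pairs. Alternatives were quantile normalisation, median centring, another variance prior, the replicate block, a filter on dim genes, the mean of a gene's probes, and leaving out each array. Background correction and slide or scan batch could not be varied or tested from this table.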

Additional observations from a re-analysis of the deposited data

Results flagged for a closer look

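Rows without a gene name, which the comparisons above do not use, also differed between the groups. The row 16738465 is listed as a signal outside the main measurement. Its log2 values were 4.03, 4.34 and 3.99 in control arrays and 9.60, 9.51 and 9.64 in RKIP shRNA arrays, a difference of 5.46. It was the only one of all 53617 rows with a larger difference upward than CLC. A second unnamed row, 16781602, went from 7.42 ± 0.16 to 10.53 ± 0.06 (SD, n = 3 each), a difference of 3.11, and ranked 5 among all rows. The genes these rows read are not named here, so both were set beside no gene list. Whether either row reads one of the 9 listed eosinophil genes without a named row was not tested, and the median of 0.03 for the other eosinophil genes does not include these rows.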

How the results depend on the processing

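The log2 differences of CLC, EPX, HDC, GATA2 and IL1RL1 kept their direction under quantile normalisation, median centring, the mean of a gene's probes and leaving out each array, and moved by less than their pooled SD. Leaving out 1 array gave 5.39 to 5.49 for CLC, 4.86 to 5.00 for EPX, 1.56 to 1.75 for IL1RL1, 0.53 to 0.60 for GATA2 and 0.39 to 0.62 for HDC. PEBP1 ranged from -1.54 to -1.41 and passed under all 12 alternatives. Of other eosinophil genes, 1 rose in every fit except the one without dim genes, where HRH4 was left out by construction and the count was 0. For mast cell and basophil genes, leave-one-out counts were 1 to 2 higher and 1 to 2 lower. With a trended and robust prior 2 lineage factors were called lower, LYL1 joining FLI1. The log2 change of LYL1 was -0.22 in both fits, and only its limma adjusted p differed (0.123 in the main fit, 0.0315 with that prior). Over all genes, that prior gave 3869 calls and the main fit 3010. Leaving out 1 array gave 963 to 1212 genes called higher and 1018 to 1270 lower. With the replicate block, 1033 genes were higher and 1109 lower; among the calls named, IKZF1 (adjusted p = 0.0508), JAK2 (0.0667), MPO (0.0836), PPOX (0.05), SIGIRR (0.0886), TAB2 (0.0987), CSF3R (0.0556) and CD5 (0.075) were lost. TAB2 also lost its call with median centring and SIGIRR with quantile normalisation. These scalings moved the median change of all genes from 0.02 to 0.03.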
